A study of Mus musculus with 141 samples.

Results

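Rab genes encode small GTPases that mark the membranes of the cell, and 59 protein-coding genes with a symbol of this family were found among the 46078 mouse gene rows of the counts. A member was any gene whose symbol is Rab followed by a number, with at most 1 letter and 1 further digit. All genes with such a symbol were kept, and the symbol was the only criterion. The RNA came from single bone marrow cells of 3 female C57BL/6 mice without any treatment or engineered allele named in the labels. The 94 basophil/mast cell progenitors (BMCP) were live lineage-negative, cKit-positive, Sca1-negative cells with high integrin beta7 and high CD16/32. The 47 granulocyte/monocyte progenitors (GMP) were sorted with the same lineage, cKit and Sca1 gates as CD34-positive, CD16/32-high cells outside the BMCP gate. Ages are not given, and no cell is tied to a mouse. Each population was therefore 1 sample, cells were not treated as replicates, and no test was possible. Every interval below is at 95%. Intervals of a level cover error in counting reads only, and are too narrow, because reads amplified without molecular identifiers are not independent molecules. Intervals of a share of cells treat cells as independent draws from that 1 sample and leave out differences between mice.

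A Rab protein switches between a GTP-bound form, which recruits effector proteins to a membrane, and a GDP-bound form, which is held in the cytosol by GDP dissociation inhibitors. Exchange factors switch it on and GTPase-activating proteins switch it off. Each Rab works at particular compartments, and mast cells, basophils and neutrophils rely on some of them to move and release their secretory granules.

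After filtering, 89 BMCP held between 96129 and 2416630 nuclear-encoded counts each (median 893037), and 41 GMP held between 130191 and 3688848 (median 1309887). Medians of the summed mast cell and basophil markers, and of the summed granulocyte and monocyte markers, differed in the direction of the labels, with overlap between single cells. The summed level of 7 mast cell and basophil markers had a median of 13379 CPM (reads per 1000000 nuclear-encoded reads) over BMCP (lowest 1247) and 791 CPM over GMP (highest 7900). That of 6 granulocyte and monocyte markers was 7.42 CPM over BMCP (highest 2921) and 46231 CPM over GMP (lowest 541). T and natural killer cell markers had at most 4.85 CPM summed over 5 genes in any cell. Erythroid markers reached 1273 CPM in a BMCP and 297 CPM in a GMP, and megakaryocyte markers 2047 and 1721 CPM. B-lymphoid markers reached 1079 CPM in a BMCP and 584 CPM in a GMP, with medians of 0.788 and 63.1 CPM, and eosinophil markers 1.79 and 351 CPM. The part of these cells in the results was not tested.

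The counts for the Rab family lay near those of all genes, while single members differed widely. With reads summed over each population, 53 of the 59 reached 1 CPM in either one. Of these 53, 15 (28.3%) were at least 2-fold higher in BMCP, where 25.8% of all 14554 genes at that level were. A further 9 (17%) were at least 2-fold lower, where 21% of all genes were, and 29 lay between. The median log2 ratio of BMCP over GMP, taken on CPM plus 1, was 0.21 for Rab genes and 0.04 for all genes. Below, a pair of levels is given with BMCP first and GMP after it. A stricter rule asked for at least 20 CPM and detection in at least 25% of cells in the higher population, with no cell holding 50% or more of its reads and no change of sign when cells were averaged instead of summed. It kept 6 members higher in BMCP (Rab19, Rab27b, Rab4a, Rab37, Rab8b and Rab21), where 6.97% of all genes were kept, and 4 lower (Rab31, Rab27a, Rab29 and Rab38), where 9.89% were. The table sets BMCP numbers 1 to 47 apart from numbers 48 to 94 in its column order. For 18 of the 53 members at least 1 of these blocks was in another class (higher, lower or within 2-fold) against GMP than the summed BMCP did, and 8 of the 10 members under the stricter rule kept their class in both blocks. Rab8b and Rab29 did not. Scaled to the spike-in RNA added to each reaction, the median of all genes moved to -0.78. The split was then 10 higher and 19 lower of 52 Rab genes, with 14.4% and 42.7% of all genes called, and relative to that median it was 14 higher and 9 lower.

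**Figure D1:**
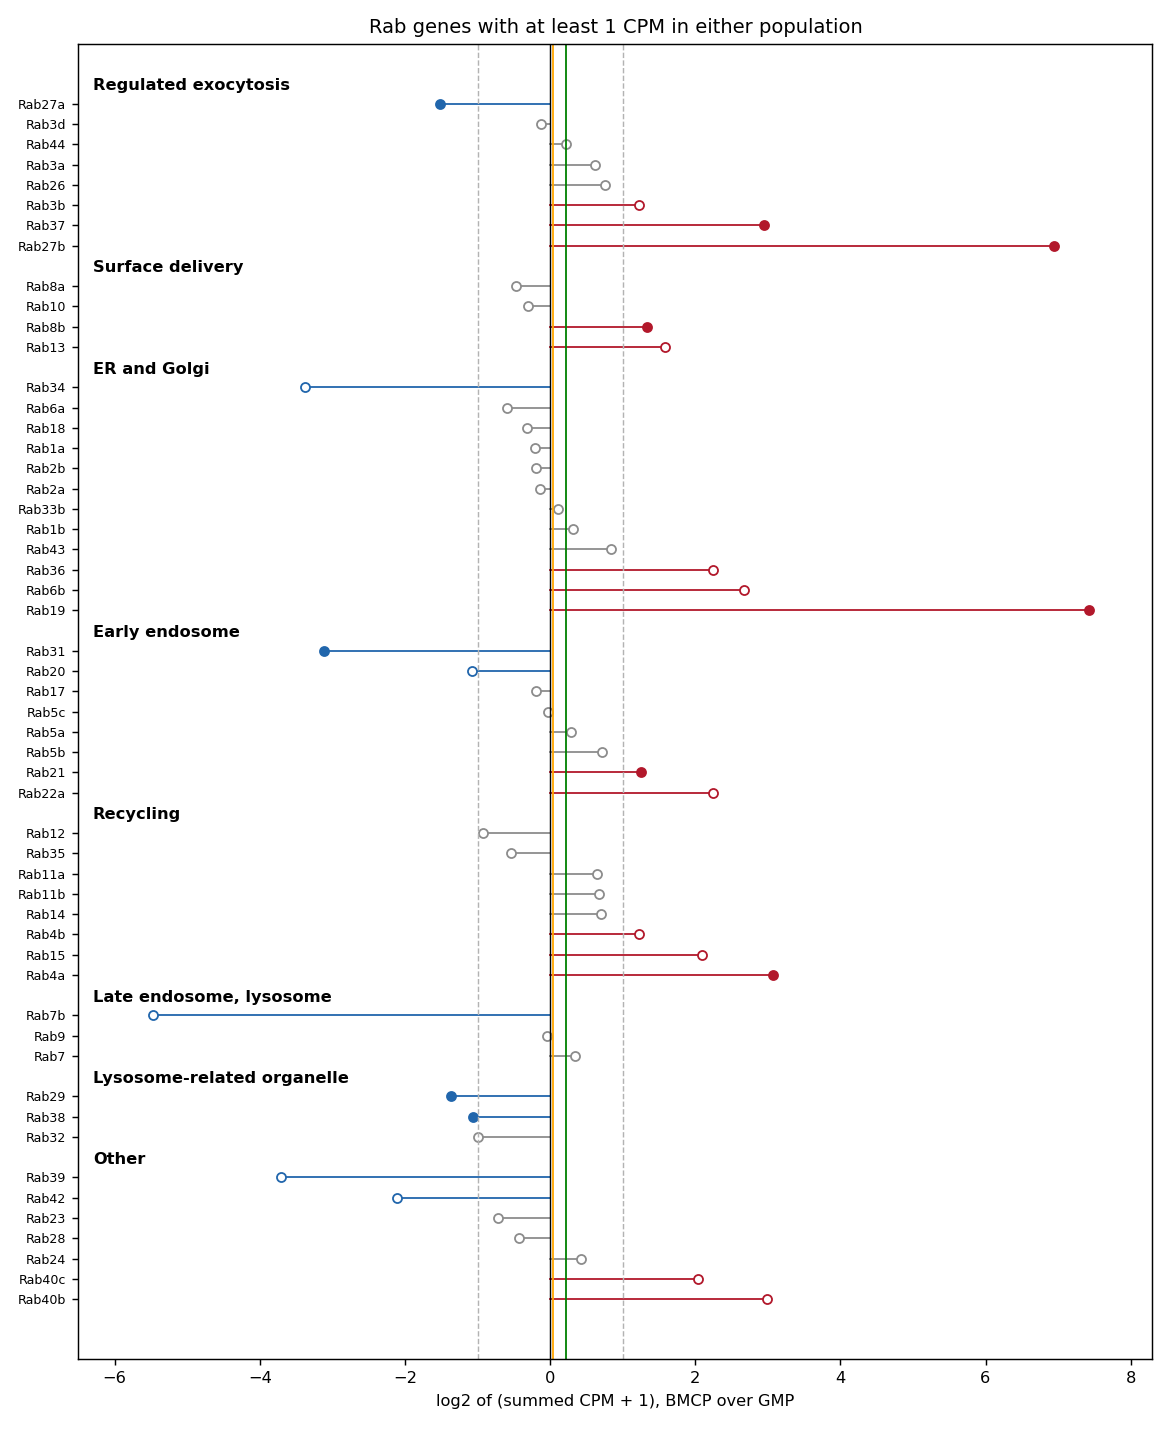
The x axis is the log2 ratio, BMCP to GMP, of summed CPM plus 1 for the 53 Rab genes with at least 1 CPM in either population (y axis, by role). Red is at least 2-fold higher in BMCP, blue at least 2-fold lower and grey in between; filled points passed the stricter rule, dashed lines mark 2-fold, the green line is the Rab median of 0.21 and the orange line the median of all genes at 0.04. Rab19 at 7.42 and Rab7b at -5.48 lie at the ends.

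Among Rab genes of regulated exocytosis, which act at secretory granules, 3 of 8 measured members were at least 2-fold higher in BMCP and 1 was lower, with a median log2 ratio of 0.69. Over all genes 25.8% were higher and 21% lower, the shares to set beside this and each role group below. The family's granule Rabs differed in kind between the populations. Rab44 was abundant in both, Rab37 and Rab27b were mostly in BMCP, and Rab27a was higher in GMP. Rab44 (ENSMUSG00000064147, chromosome 17, 29114145 to 29148980, GRCm38), an atypical large Rab that has been linked to mast cell degranulation, had a summed level of 782 CPM (776 to 788) for BMCP against 675 CPM (668 to 682) for GMP. Over cells it ran from 1.05 to 7186 CPM with a median of 643 CPM in BMCP, and from 5.35 to 1918 CPM with a median of 572 CPM in GMP. No cell of either population lacked a read, the ranges overlapped almost wholly, and the log2 ratio was 0.21.

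Rab37 (ENSMUSG00000020732, chromosome 11, 115091431 to 115162236), which sits on mast cell secretory granules, had a summed level of 574 CPM (568 to 579) for BMCP against 73.6 CPM (71.3 to 75.9) for GMP, 7.80-fold apart. Cells ran from 0 to 2554 CPM with a median of 489 CPM in BMCP, and from 0 to 916 CPM with a median of 0.650 CPM in GMP. Most BMCP thus carried the gene at a high level and most GMP at or near none, with overlap from both sides. To compare shares of cells at equal depth, each cell was thinned to 200000 reads, which left 86 BMCP and 40 GMP, and detection was set at 2 reads. Rab37 was detected in 77 of 86 BMCP (89.5%, exact limits 81.1 to 95.1), against 11 of 40 GMP (27.5%, 14.6 to 43.9). At 10 reads the shares were 82.6% of BMCP and 25% of GMP. GMP replicates 24 and 30 held 916 and 568 CPM of it. Of the mast cell and basophil markers, they held Cpa3 at 2185 and 2699 CPM and Gata2 at 1789 and 2144 CPM. Other such markers were low in them, with Gzmb at 2.72 and 0.790 CPM, Cma1 at 0.681 and 0.395 CPM and Mcpt8 at 0.681 and 0 CPM. Itgb7 was at 0 and 560 CPM. Mpo was at 509 and 1117 CPM, against a GMP median of 29709 CPM. Without these 2 cells, left out after their values were seen, the log2 ratio was 4.45 against 2.95 with them. Without the 18 GMP at 10 or more thinned Gata2 reads the GMP level was 11.9 CPM and the log2 ratio 5.48.

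Rab27a and Rab27b are close paralogues that dock granules at the plasma membrane. Rab27b (ENSMUSG00000024511, chromosome 18, 69979131 to 70141605) had a summed level of 152.5 CPM (150 to 155) for BMCP against 0.252 CPM (0.138 to 0.423) for GMP, a log2 ratio of 6.94. In GMP it rested on 14 reads, 78.6% of them in replicate 29, and was 0.0559 CPM without that cell. BMCP were uneven in Rab27b, from 0 to 2680 CPM with a median of 2.44 CPM. It was detected in 36 of 86 BMCP (41.9%, 31.3 to 53) and in 0 of 40 GMP, which allows a share of up to 8.81% at 2 thinned reads. Before thinning, 3 of 41 GMP held any read of it. Rab27a (ENSMUSG00000032202, chromosome 9, 73044854 to 73097629) ran the other way, at 28.96 CPM (27.8 to 30.1) for BMCP (19.02 CPM once cell 57 was left out) against 84.9 CPM (82.4 to 87.3) in GMP. Its cells ran from 0 to 428 CPM (median 0) in BMCP and from 0 to 530 CPM (median 29.7) in GMP, so the ranges overlapped. Rab27a was detected in 16 of 86 BMCP, against 23 of 40 GMP. In the thinned BMCP, 31 cells had Rab27b alone, 11 Rab27a alone, 5 both and 39 neither. At 10 reads these were 28, 9, 1 and 48. Independent detection would give 6.70 cells with both at 2 reads and 3.37 at 10 reads. In GMP, 23 cells had Rab27a alone and 17 neither. Per kilobase of exon, Rab27b made up 65.7% of the pair's level in BMCP and 0.108% in GMP.

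The other granule Rabs were low, or within 2-fold when all BMCP were summed. Rab3d, the Rab3 form of exocrine and mast cell granules, was at 65.4 and 71.3 CPM, with 19.8 CPM in BMCP numbers 1 to 47, over 2-fold below GMP, and 93 CPM in numbers 48 to 94. Detection was in 14 of 86 BMCP, against 23 of 40 GMP. Rab3a was at 10.4 and 6.43 CPM, and Rab26 at 6.24 and 3.30 CPM with over 90% of the reads of each population in 1 cell. In BMCP that cell was among numbers 1 to 47. Rab3b had 113 reads, all in 1 BMCP, and no read in GMP. Rab3c had 1 read in all.

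**Figure D2:**
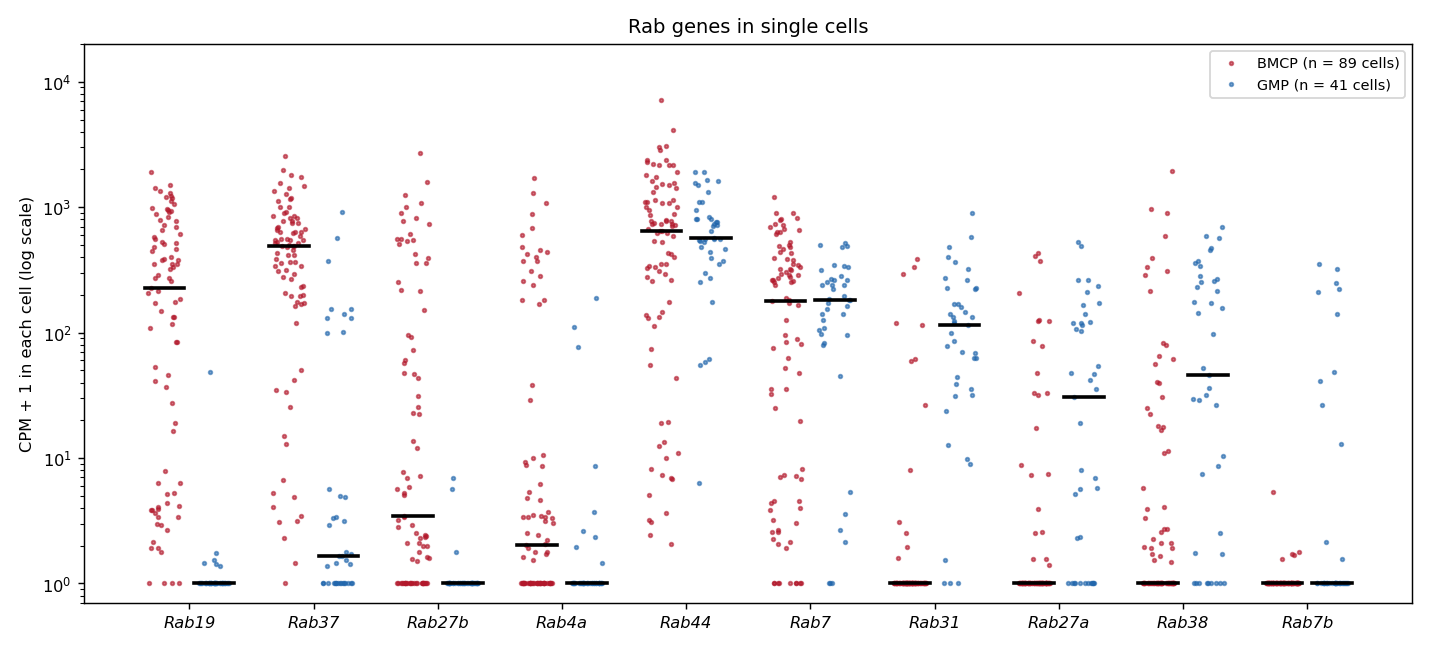
Single-cell levels of 10 Rab genes (x axis) as CPM plus 1 on a log scale (y axis); red points are the 89 BMCP, blue points the 41 GMP, and black bars mark medians. BMCP medians are 227 CPM for Rab19 and 489 CPM for Rab37 against 0 and 0.650 CPM in GMP, whereas Rab31 has medians of 0 and 114 CPM.

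Rabs of the endoplasmic reticulum and Golgi, which run the secretory route, include Rab19, one of the members with the largest ratios towards BMCP. Its log2 ratio of 7.42 lay above the 6.94 of Rab27b with 1 CPM added, and with 0.1 CPM added the order was reversed, at 8.12 and 8.76. Of 12 measured, 3 were at least 2-fold higher in BMCP and 1 lower, with a median log2 ratio of -0.01. Rab19 (ENSMUSG00000029923, chromosome 6, 39381175 to 39390380), a little studied Rab placed at the Golgi, had a summed level of 403 CPM (399 to 407) for BMCP against 1.35 CPM (1.06 to 1.69) for GMP, or 0.0925 CPM for GMP once cell 24 was left out. Cells ran from 0 to 1913 CPM with a median of 227 CPM in BMCP, and from 0 to 47.7 CPM with a median of 0 in GMP. Its spread in BMCP was broad, with quartiles at 5.28 and 614 CPM, and 4 of 89 cells had no read. Rab19 was detected in 62 of 86 BMCP (72.1%, 61.4 to 81.2), against 1 of 40 GMP (2.5%, 0.0633 to 13.2), the latter being replicate 24. It was at 409 CPM in BMCP numbers 1 to 47 and 399 CPM in numbers 48 to 94. Rab19 and Rab37 were detected together in 56 of 86 BMCP, Rab19 alone in 6, Rab37 alone in 21 and neither in 3. Independent detection at their separate shares would give 55.5 cells with both.

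The housekeeping members of the same route lay within 2-fold. Rab1a and Rab1b, which act between endoplasmic reticulum and Golgi, were at 193 and 189 CPM in BMCP and 223 and 152 CPM in GMP. Rab2a was at 139 and 153 CPM, Rab6a at 77.3 and 117 CPM, and Rab18, known for its place on lipid droplets, at 165 and 205 CPM. Rab6b and Rab36 were 8.52-fold and 5.14-fold higher in BMCP, at 21.2 and 46.8 CPM, but were detected in 7 and 9 of 86 BMCP. With the highest cell left out, the levels of Rab6b were 13.3 and 1.20 CPM. Rab36 in GMP rested for 85.5% on replicate 18 and was 1.35 CPM without it. Rab43 was at 80.9 and 44.9 CPM, or 26.7 CPM for GMP once cell 30 was left out. It shares 4164 of its 5526 exon bases with the gene model Gm45140, which makes its level uncertain. Rab34 lacked any BMCP read and had 9.35 CPM in GMP, of which replicate 14 held 85.5%. Rab2b was at 7.09 and 8.29 CPM and Rab33b at 29.1 and 26.8 CPM. Rab30 and Rab33a had no read.

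Promoters are shown for 5 of the 10 members under the stricter rule, so that higher and lower genes can be set side by side. They are RefSeq sequence (GRCm38.p6) and stop where annotated exons begin. Rab21, Rab27b, Rab4a, Rab37 and Rab38 are not shown. Up to 150 bases are given 5′ to 3′ on the gene's strand. Capitals mark a GC box, GGGCGG or its reverse complement, a promoter element. Rab27a has another start, whose stretch is not shown. The Rab19 stretch (chr6:39381103-39381174, plus strand) and the Rab8b stretch (chr9:66919706-66919855, minus strand) belong to genes higher in BMCP. The Rab31 (chr17:65772753-65772902, minus strand), Rab27a (chr9:73044660-73044809, plus strand) and Rab29 (chr1:131867074-131867223, plus strand) stretches belong to genes lower in BMCP.
Rab19: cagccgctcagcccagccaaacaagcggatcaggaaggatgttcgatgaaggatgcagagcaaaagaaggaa
Rab8b: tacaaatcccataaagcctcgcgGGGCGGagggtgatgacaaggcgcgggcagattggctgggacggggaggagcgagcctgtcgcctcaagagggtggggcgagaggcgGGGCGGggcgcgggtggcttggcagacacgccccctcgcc
Rab31: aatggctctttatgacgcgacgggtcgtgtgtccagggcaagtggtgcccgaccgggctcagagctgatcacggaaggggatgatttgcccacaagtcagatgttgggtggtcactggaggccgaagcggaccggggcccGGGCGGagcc
Rab27a: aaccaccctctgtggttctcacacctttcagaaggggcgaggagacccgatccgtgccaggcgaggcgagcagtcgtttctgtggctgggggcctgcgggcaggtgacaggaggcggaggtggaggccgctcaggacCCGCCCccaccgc
Rab29: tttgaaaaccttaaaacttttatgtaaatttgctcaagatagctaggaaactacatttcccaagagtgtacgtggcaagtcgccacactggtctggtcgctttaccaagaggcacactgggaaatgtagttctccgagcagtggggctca

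The table held 48 of the 59 Rab genes. A GC box was found on either strand in the 250 bases before a start in 36 of these 48 (75%), and in 45.8% of 17491 protein-coding genes in the table. Rab19, Rab29 and Rab32 were among the Rab genes with none in that window. For Rab19, 178 of the 250 bases lay in annotated exons. The motif of the GATA factors, here the letters AGATAA, was found before 2 of 48 Rab genes (Rab34 and Rab43) and in 10.3% of protein-coding genes. CACGTG, an E-box bound by MITF and TFE factors, was found before 5 of 48 (Rab5a, Rab20, Rab21, Rab23 and Rab27a) against 7.61%. In Rab27a it lay before the start whose stretch is not shown. GAGGAAG, a PU.1 motif, was found before 5 of 48 (Rab2b, Rab6a, Rab12, Rab32 and Rab33b) against 11.7%. These are matches of letters and describe the sequence alone.

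At the plasma membrane, 2 of 4 Rabs of surface delivery were at least 2-fold higher in BMCP and none was lower, beside 25.8% and 21% of all genes. Rab8b (ENSMUSG00000036943, chromosome 9, 66843664 to 66919687), which carries vesicles to the surface, had a summed level of 108 CPM (105.5 to 110) for BMCP against 42.3 CPM (40.6 to 44) for GMP. It ran from 0 to 1273 CPM (median 1.60) over BMCP and from 0 to 647 CPM (median 0) over GMP. Reads were detected in 32 of 86 and 14 of 40 cells, and its level was uneven, at 67 CPM in BMCP numbers 1 to 47 and 132 CPM in numbers 48 to 94. The mean of the cells' CPM gave a log2 ratio of 0.99 against 1.33 for summed reads. Its paralogue Rab8a was at 158 and 218 CPM and Rab10 at 122 and 151 CPM. Rab13 was at 11.6 and 3.22 CPM, or 6.97 and 0.940 CPM with the highest cell of each left out, and was detected in 4 of 86 BMCP, against 3 of 40 GMP.

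Rabs of recycling endosomes, which return receptors to the surface, had 3 of 8 measured members at least 2-fold higher in BMCP and none lower. All genes had 25.8% higher and 21% lower. The median log2 ratio of the recycling Rabs was 0.68. Rab4a (ENSMUSG00000019478, chromosome 8, 123805985 to 123835287), the Rab of fast recycling, had a summed level of 104 CPM (101 to 106) for BMCP against 11.5 CPM (10.6 to 12.4) for GMP, or 3.02 CPM for GMP once cell 30 was left out. Without the 18 GMP at 10 or more thinned Gata2 reads the GMP level was 0.199 CPM and the log2 ratio 6.45, against 3.07 with them. Cells ran from 0 to 1695 CPM with a median of 1.05 CPM in BMCP and from 0 to 188 CPM with a median of 0 in GMP. It was detected in 26 of 86 BMCP, against 3 of 40 GMP, so a minority of BMCP set its level. It was at 137 CPM in BMCP numbers 1 to 47 and 83.5 CPM in numbers 48 to 94. Rab11a and Rab14, the more general recycling Rabs, were higher by less than 2-fold, at 228 against 146 CPM and 388 against 239 CPM. Rab11b was at 78.6 and 49.2 CPM. Rab4b was at 10.6 and 3.98 CPM and shares 1280 of its 1970 exon bases with the gene model Gm21983. Rab12 was at 7.82 and 15.7 CPM and Rab35, which also works in recycling, at 23.2 and 34.1 CPM. Rab15 rested for over 90% of its reads on 1 BMCP, and Rab25 had no read.

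Early endosome Rabs divided evenly, with 2 of 8 at least 2-fold higher in BMCP, 2 lower and a median log2 ratio of 0.13. Rab31 (ENSMUSG00000056515, chromosome 17, 65651729 to 65772752), which works between the trans-Golgi network and endosomes, had a summed level of 14.6 CPM (13.8 to 15.4) for BMCP against 134 CPM (131 to 137) for GMP, 9.21-fold apart. Cells ran from 0 to 384 CPM with a median of 0 in BMCP, and from 0 to 900 CPM with a median of 114 CPM in GMP. It was detected in 9 of 86 BMCP (10.5%, 4.90 to 18.9), against 36 of 40 GMP (90%, 76.3 to 97.2). Most BMCP had no read of it and 3 of 41 GMP had none. BMCP replicate 44 held 35.9% of the BMCP reads, and the level was 9.505 CPM without it. It was 31.8 CPM in BMCP numbers 1 to 47 and 4.17 CPM in numbers 48 to 94, with log2 ratios of -2.04 and -4.71. Replicate 44 held Mpo at 5.24 CPM, Gzmb at 1501 CPM and the proliferation marker Mki67 at 1582 CPM, and the part of these in the result was not tested.

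The Rab5 forms, which organise early endosomes, lay within 2-fold when all BMCP were summed. Rab5c was at 116 and 118 CPM, Rab5a at 30.04 and 24.5 CPM and Rab5b at 41.4 and 24.9 CPM. In BMCP numbers 1 to 47 Rab5a was at 9.42 CPM, over 2-fold below GMP, and in numbers 48 to 94 at 42.5 CPM. Rab5c made up 77.2% of the group's level per kilobase in BMCP and 83.5% in GMP. Rab21 (ENSMUSG00000020132, chromosome 10, 115287084 to 115315594), which moves integrins through endosomes, had a summed level of 44.5 CPM (43.1 to 46) for BMCP against 18.05 CPM (16.9 to 19.2) for GMP. Cells ran from 0 to 839 CPM (median 0) in BMCP and from 0 to 239 CPM (median 0) in GMP, and 25 of 86 and 13 of 40 had it. Rab22a was 5.03-fold higher in BMCP, at 62.5 and 12.4 CPM, or 7.64 CPM for GMP once cell 7 was left out. It was detected in 20 of 86 BMCP, against 6 of 40 GMP. It stood at 18.4 CPM in BMCP numbers 1 to 47 and 89.2 CPM in numbers 48 to 94. Rab20 and Rab17 rested mainly on single cells.

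**Figure D3:**
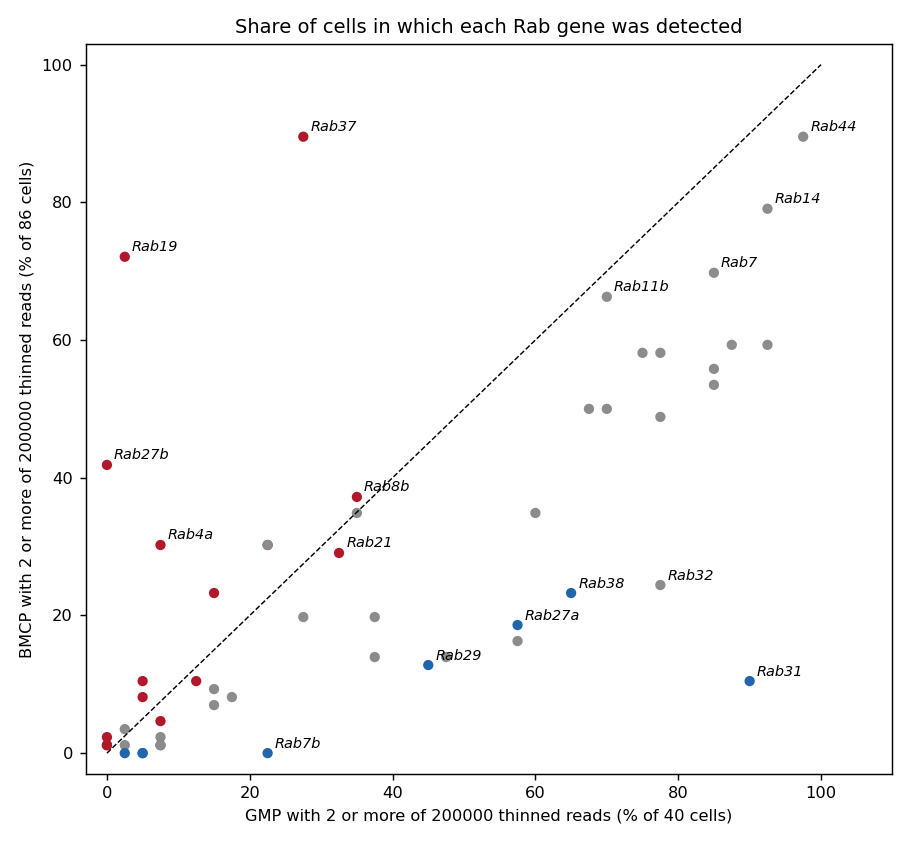
Share of thinned cells with 2 or more reads of each of 53 Rab genes, GMP on the x axis (% of 40 cells) and BMCP on the y axis (% of 86 cells), with equality as a dashed line; red is at least 2-fold higher in BMCP by summed CPM, blue lower and grey in between. Rab37, Rab19, Rab27b and Rab4a lie well above the line, and Rab31 at 90% of GMP and 10.5% of BMCP far below it.

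The 3 Rabs listed under lysosome-related organelles, a class that includes melanosomes and platelet dense granules, had lower levels in BMCP. Rab27a and Rab27b were listed under regulated exocytosis and are not counted here. Of Rab29, Rab32 and Rab38, 2 were at least 2-fold lower in BMCP and the third missed that line narrowly, with log2 ratios of -1.36, -0.997 and -1.06. Rab38 (ENSMUSG00000030559, chromosome 7, 88430273 to 88491572) had a summed level of 67.8 CPM (66.1 to 69.6) for BMCP against 142 CPM (139 to 146) for GMP. Cells ran from 0 to 1949 CPM (median 0) in BMCP and from 0 to 697.5 CPM (median 44.8) in GMP, and it was detected in 20 of 86 and 26 of 40. Its log2 ratio was -0.69 without the 18 GMP at 10 or more thinned Gata2 reads, and -0.97 with a pseudocount of 10 CPM. With the highest cell of each population left out it was -1.43. Rab32, which shares much of the work of Rab38, was at 88.8 and 178 CPM, with cell medians of 0.414 and 90.7 CPM and detection in 21 of 86 and 31 of 40. BMCP numbers 1 to 47 gave a log2 ratio of -0.51 and numbers 48 to 94 one of -1.40. Rab32 and Rab38 were detected together in 21 of 40 GMP and 8 of 86 BMCP, where independent detection would give 20.15 and 4.88 cells. Rab29 (ENSMUSG00000026433, chromosome 1, 131867224 to 131872887), a Rab of Golgi and lysosomes known for its link to the kinase LRRK2, had a summed level of 14.6 CPM (13.8 to 15.5) for BMCP against 39.3 CPM (37.6 to 40.9) for GMP. It ran from 0 to 579 CPM (median 0) over BMCP and from 0 to 1083 CPM (median 2.14) over GMP, and was detected in 11 of 86 and 18 of 40. It stood at 23.7 CPM in BMCP numbers 1 to 47 and 9.20 CPM in numbers 48 to 94, and the log2 ratio of the former was -0.71.

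Rab7 is the main Rab of late endosomes and lysosomes and lay within 2-fold, at 250.3 CPM (247 to 254) and 198 CPM (194 to 202). Its cell medians were 179 CPM in each. Rab7b, a related Rab of monocytes and macrophages that acts on receptor traffic, had 5 reads in BMCP (0.0594 CPM, 0.0193 to 0.139) and 46.1 CPM (44.4 to 47.9) in GMP. It was detected in 0 of 86 BMCP, which allows a share of up to 4.20% at 2 thinned reads, and in 9 of 40 GMP (22.5%, 10.8 to 38.5), with a highest cell of 353.5 CPM. Before thinning, 5 of 89 BMCP held a read of it. Rab7b therefore missed the detection limit of the stricter rule and was chosen for description after its values were seen. Rab9, which returns receptors from late endosomes, was at 50.8 and 52.3 CPM, and Rab9b had 3 and 2 reads.

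Of 7 other measured members, 2 were at least 2-fold higher in BMCP and 2 lower, none under the stricter rule. Rab24, which has been tied to autophagy, was at 191 and 142 CPM and shares 1258 of its exon bases with Prelid1 on the other strand. Rab28, a Rab of cilia, was at 42.8 and 58.2 CPM, with 11 CPM in BMCP numbers 1 to 47 and 62.1 CPM in numbers 48 to 94. Rab40c, whose protein carries a SOCS box, was at 34.97 CPM in BMCP, or 4.82 CPM in numbers 1 to 47 and 53.2 CPM in numbers 48 to 94. In GMP it was at 7.78 CPM, or 2.14 CPM without GMP replicate 33. Rab40b in BMCP, and Rab39 and Rab42 in GMP, rested for over 80% of their reads on 1 cell and had no read in the other population. Rab40b in BMCP, with reads in 3 cells, lay 129-fold over a GMP floor of 3 counts. It was at 0.0630 CPM in BMCP numbers 1 to 47 and 11.1 CPM in numbers 48 to 94. Rab23 was at 0.368 and 1.24 CPM, and Rab39b had no read.

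Levels of different genes were compared per kilobase of annotated exon, since reads of a whole-transcript protocol scale with length. On that scale Rab19 led in BMCP at 256 CPM per kb (253 to 259), ahead of Rab44 at 154, Rab37 at 108, Rab7 at 95.9 and Rab24 at 94.6 CPM per kb. The limits of the last pair, 94.6 to 97.2 and 93.1 to 96.1, overlap. Rab19 stood at 0.858 CPM per kb in GMP, rank 46 of the family. In GMP Rab44 led at 133 CPM per kb, ahead of Rab38 at 90.3, Rab32 at 76.2, Rab7 at 75.85 and Rab2a at 71.6 CPM per kb, where Rab32 and Rab7 are not set apart by their limits. The leading 3 made up 33.2% of the summed Rab level per kb in BMCP and 25.3% in GMP. Among the role groups, Rabs of the endoplasmic reticulum and Golgi had the largest share, 34.4% and 23.85%. Rab19 alone made up 16.4% of the BMCP total, which lowers the BMCP share of every other group. The share of Rabs of regulated exocytosis was 19.7% and 16%, and that of the 3 Rabs listed under lysosome-related organelles 5.84% and 16.3%.

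**Figure D4:**
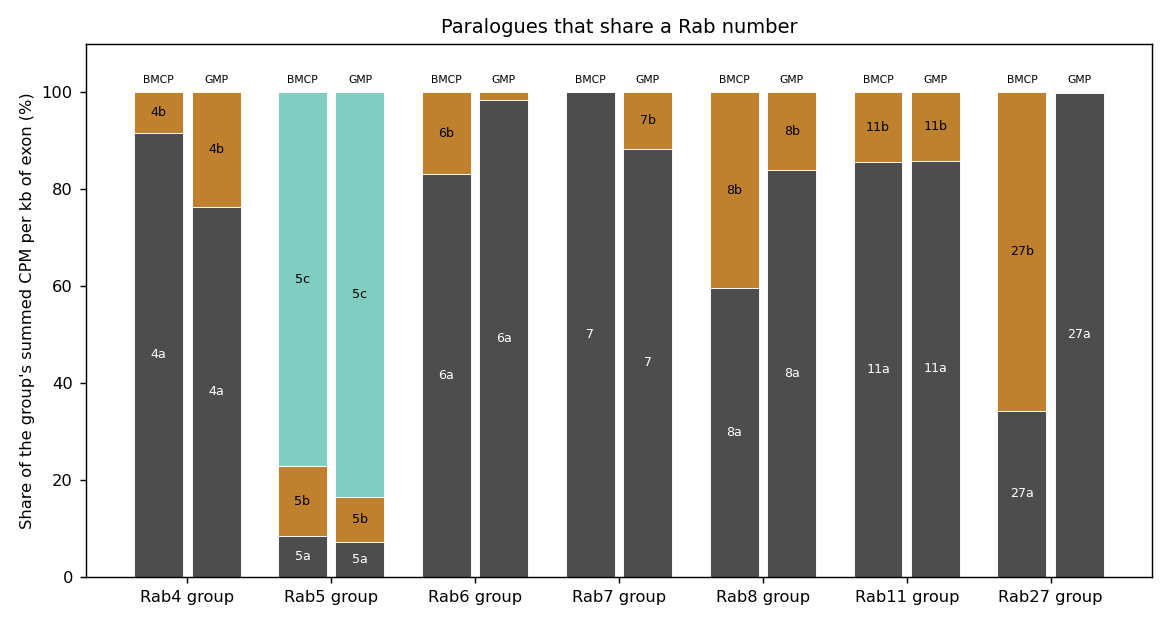
Share of each paralogue in its group's summed CPM per kilobase of exon (y axis, %) in BMCP (left bar) and GMP (right bar) for 7 groups that share a Rab number (x axis); each population is 1 sample, so bars carry no error. Rab27b makes up 65.7% of its pair in BMCP and 0.108% in GMP, and Rab8b 40.3% and 16.1%, while the Rab11 pair has Rab11a at 85.6% and 85.9%.

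Across cells, a median of 15 Rab genes was detected per thinned BMCP (range 6 to 23) and 20 per GMP (12 to 26). All genes showed the same order, with medians of 3248 and 4885 per cell. Of the 53 measured Rab genes, 39 (73.6%) were detected in a larger share of GMP than of BMCP, as were 73.8% of all genes. The summed CPM of Rab genes had a median of 5261 in BMCP (1252 to 11550) and 4004 in GMP (1672 to 8458), with wide overlap. Among the 27 Rab genes with at least 20 CPM in both populations, the coefficient of variation over thinned cells was larger in BMCP for 24 (88.9%), as it was for 89.2% of 6575 genes at that level. Its median was 1.82 in BMCP and 1.30 in GMP for these Rab genes, and 2.23 and 1.49 for all genes. Fewer cells with a transcript and uneven capture of it cannot be told apart here.

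Genes that act on Rabs were counted in the same way. Scaled to spike-ins, the medians below were -0.026 for effectors, -0.23 for exchange factors and -0.70 for GTPase-activating proteins, against -0.78 for all genes. Of 32 measured effectors, 15 were at least 2-fold higher in BMCP and 4 lower, with a median log2 ratio of 0.70. The shares of all genes were 25.8% and 21%. Under the stricter rule 3 effectors were higher and 3 lower, so the excess was not seen there. The same rule kept 7 of 26 exchange factors higher and 4 lower, and 3 of 32 GTPase-activating proteins higher and 4 lower. Of all genes it kept 6.97% higher and 9.89% lower. Sytl1, a synaptotagmin-like Rab27 effector, had a summed level of 146 CPM (143 to 148) for BMCP against 20.4 CPM (19.3 to 21.7) for GMP, or 11.4 CPM without GMP replicate 46. Unc13d, the Rab27 effector that primes granules, was at 204 and 59.8 CPM, or 39.1 CPM for GMP once cell 47 was left out, and was detected in 54 of 86 BMCP, against 17 of 40 GMP. Plekhm1, a Rab7 effector, was at 57.6 and 21.4 CPM, or 14 CPM for GMP once cell 25 was left out. Sytl4, another Rab27 effector, had 62.4 and 0.180 CPM, or 31.5 CPM for BMCP once cell 91 was left out, and was detected in 16 of 86 and 0 of 40. It lies outside the stricter rule and was chosen after its values were seen. Towards GMP, Appl2, an endosomal Rab effector, was at 0.795 CPM in BMCP, all in 1 cell, against 46.4 CPM for GMP, where 12 of 40 cells had it. Gcc2, a Golgi tether that binds Rabs, was at 32.05 and 70.9 CPM, and Rbsn, a Rab4 and Rab5 effector, at 13.5 and 28.7 CPM. Without the highest BMCP of each gene these BMCP levels were 16.6 and 7.09 CPM.

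Of 26 measured exchange factors, 8 were at least 2-fold higher in BMCP and 5 lower, with a median log2 ratio of 0.58. For this and the next lists, the shares of all genes were 25.8% and 21%. Dennd1c was at 212 and 42.3 CPM and Dennd6a at 72.55 and 19.15 CPM. Towards GMP, Dennd2d was at 20.8 and 84.65 CPM, with a BMCP level of 13.3 CPM and a GMP level of 54.4 CPM once the highest cell of each was left out. Ankrd27, an exchange factor of Rab21, was at 42.2 and 94.7 CPM. Ric1, part of the Rab6 exchange factor, was at 5.46 and 43.7 CPM. Of 32 measured GTPase-activating proteins, 8 were higher and 6 lower, with a median of 0.15. Tbc1d10c was at 344 and 160 CPM, Usp6nl at 60.01 and 24.3 CPM and Tbc1d1 at 75.4 and 28.1 CPM, or 16.6 CPM for GMP with cell 47 left out. Towards GMP, Tbc1d22a was at 29.7 and 71.7 CPM, Evi5 at 7.85 and 29.1 CPM and Tbc1d2 at 9.45 and 32.3 CPM. Without their highest BMCP, Evi5 stood at 3.55 CPM and Tbc1d2 at 2.66 CPM in that population. Of 8 genes of prenylation and recycling, 1 was higher and 1 lower, with a median of -0.31.

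**Figure D5:**
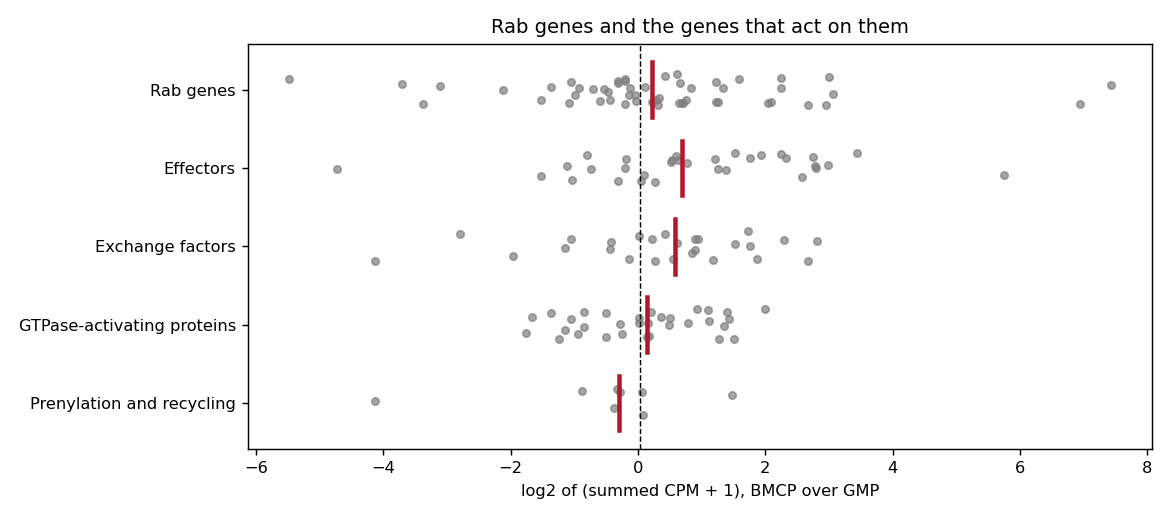
The x axis is the log2 ratio, BMCP to GMP, of summed CPM plus 1 for measured Rab genes and 4 lists of genes that act on them (y axis); grey dots are genes, red bars list medians, and the dashed line the median of all genes at 0.04. The bar lies at 0.70 for effectors, 0.58 for exchange factors, 0.15 for GTPase-activating proteins, -0.31 for prenylation and recycling and 0.21 for Rab genes.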

How the data were processed

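The authors deposited 1 table of raw read counts, with genes as rows and cells as columns. The submitters' processing notes name GSNAP 2015-09-29, HTSeq 0.5.3p3 and build mm10. Symbols, positions and exon lengths came from GENCODE vM21 on GRCm38, which named 45143 of 46078 gene rows. Rows for spike-ins and for reads without a gene stayed out of every total. No source used here states that counting used strand, so overlapping antisense genes cannot be parted. Cells were kept with at least 50000 nuclear-encoded counts, 1000 genes, at most 10% mitochondrial counts and at most 50% spike-in reads, which left 89 of 94 BMCP and 41 of 47 GMP. Counts were summed per population and scaled to CPM, with a pseudocount of 1 and exact Poisson limits; shares have Clopper-Pearson limits. The floor of 3 counts is 0.0356 CPM in BMCP and 0.0540 CPM in GMP. Columns of the table fall into 3 blocks that the labels do not describe. BMCP 1 to 47 and BMCP 48 to 94 fill 1 each and GMP the other, so a block effect and a population difference cannot be told apart. Genes given in full followed the stricter rule, with the 5 highest levels per length and up to 3 genes in each direction of each list. Some genes under this rule are not reported here. Members and lists were chosen with earlier results of these data known. The ratio step was tested on simulated counts. The software was matplotlib 3.10.9, scipy 1.17.1, pandas 2.3.3 and numpy 2.4.6 under Python 3.11.15.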

Additional observations from a re-analysis of the deposited data

How the results depend on the processing

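No paired analysis was possible because each population is 1 sample and cell numbers do not pair cells. The 10 Rab genes under the stricter rule were recomputed under 16 alternatives, 2 of them chosen after seeing the data. All 160 values kept their direction, and 149 stayed at or past 2-fold. Under every alternative run, 6 genes did so: Rab19, Rab27b, Rab4a, Rab37, Rab31 and Rab27a. Part of these values could not have come out otherwise. Dropping the filter on low genes, or raising it to 10 CPM, left the ratio of each of these 10 genes unchanged. Averaging cells could alter the size of a ratio but not its sign, because the stricter rule had already excluded such genes. Rab8b, Rab21, Rab38 and Rab29 reached as low as 0.41 in size on the log2 scale (Rab21 with spike-in scaling). Scaling to spike-ins gave 19 Rab genes at least 2-fold lower and moved medians to -0.62 for Rab genes, -0.026 for effectors, -0.23 for exchange factors and -0.70 for GTPase-activating proteins, while the median of all genes went from 0.04 to -0.78. A pseudocount of 10 CPM gave 9 higher and 4 lower, because it shrinks ratios of low genes. At 10 thinned reads, 7 Rab genes were detected in at least 50% of BMCP against 14 at 2 reads. Reads of many members lay in few cells: of 24 Rab genes past 2-fold, 7 had 50% or more of the higher population's reads in 1 cell.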
